A study of Mus musculus with 6 samples.

Results

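The nuclear receptor family was measured in whole testes of C57BL/6J mice on Affymetrix mouse gene 2.0 st arrays. A list of 46 receptor genes was given, and a gene was taken as measured where a probe set carries its symbol and no other. This was so for 44 receptors, out of 22180 genes measured in this way, and the probe set with the highest mean over the 6 arrays stood for each gene. Nr1h2 and Nr2e3 had no such probe set and were not analysed here. Males of the ATZ group drank water with 100 mg/l of atrazine, nearly 25 mg/kg per day, for 3 weeks and were then kept for 2 weeks without ATZ. Testes of these animals (3 arrays) and of controls of the same strain, for which no treatment is given (3 arrays), were taken at 10 weeks of age. No allele or transgene is named for either group. Nothing in the labels says whether a sample is 1 animal or a pool, so the p-values rest on the spread among 3 arrays of a group, which may be technical, and precision is limited by having so few arrays. The values are log2 values made by the authors with robust multi-array average (RMA), which corrects background and brings the arrays to 1 distribution. Log2 changes are ATZ minus control.

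Nuclear receptors are transcription factors that are switched by small lipophilic molecules such as steroids, retinoids, thyroid hormone, oxysterols and haem, although for many orphan members no ligand is settled. Most bind DNA through a pair of zinc fingers, as monomers, as homodimers or with a retinoid X receptor as partner, and recruit coactivators or corepressors to the genes they control. In the testis, NR5A1 drives the genes of steroid synthesis in Leydig cells, retinoic acid receptors act in the differentiation of spermatogonia and in Sertoli cells, and NR6A1 and the receptors NR2C1 and NR2C2 are known from germ cells. The study searched regions of altered chromatin marks for motifs and discussed NR5A2, so the transcripts of both NR5A receptors are given by array.

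Promoters of 40 of the 44 receptors were in the RefSeq table (GRCm38.p6), 61 promoters in all, each of 300 bases with 250 before and 50 after the start of transcription. They were searched on both strands for the hexamer AGGTCA, the core that most nuclear receptors contact. It was found in 12 of these 61 promoters (19.7%), which belong to 11 genes, against 16.3% of all 32851 promoters. The longer letters CAAGGTCA, which hold the hexamer and to which NR5A and oestrogen-related receptors bind as monomers, were in 0 of 61 and in 1.56% of all promoters. The E-box CACGTG was in 6 of 61 (9.84%) and 7.15%, and the cAMP response element TGACGTCA in 2 of 61 (3.28%) and 1.79%. Matches are descriptions and not binding sites. Among the 11 genes with the hexamer, Nr0b1 had the highest array signal of the family and Rxrg the smallest unadjusted p from limma. Rara had the lowest log2 change and Rarg no overlap between the groups. For each of these genes the first promoter with a match is shown 5′ to 3′, and any without one was passed over. The hexamer, or its complement on the other strand in Rarg, is in capitals.
Nr0b1, chrX:86191525-86191824, plus strand: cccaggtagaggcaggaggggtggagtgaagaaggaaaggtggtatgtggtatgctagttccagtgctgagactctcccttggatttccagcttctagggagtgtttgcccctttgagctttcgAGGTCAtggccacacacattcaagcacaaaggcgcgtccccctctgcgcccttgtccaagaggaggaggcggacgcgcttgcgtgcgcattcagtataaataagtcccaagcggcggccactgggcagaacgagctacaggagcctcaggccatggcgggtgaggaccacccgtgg
Rxrg, chr1:167618015-167618314, plus strand: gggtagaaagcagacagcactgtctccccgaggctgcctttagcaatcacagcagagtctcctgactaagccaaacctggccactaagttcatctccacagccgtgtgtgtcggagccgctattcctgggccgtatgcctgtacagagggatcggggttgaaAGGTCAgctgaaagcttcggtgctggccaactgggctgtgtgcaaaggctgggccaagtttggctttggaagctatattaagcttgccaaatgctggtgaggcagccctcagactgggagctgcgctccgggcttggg
Rara, chr11:98964622-98964921, plus strand: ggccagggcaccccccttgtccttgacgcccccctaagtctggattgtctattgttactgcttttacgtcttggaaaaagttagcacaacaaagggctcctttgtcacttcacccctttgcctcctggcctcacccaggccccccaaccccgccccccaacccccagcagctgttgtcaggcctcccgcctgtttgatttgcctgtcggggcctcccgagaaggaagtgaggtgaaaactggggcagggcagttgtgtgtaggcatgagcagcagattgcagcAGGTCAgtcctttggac
Rarg, chr15:102257473-102257772, minus strand: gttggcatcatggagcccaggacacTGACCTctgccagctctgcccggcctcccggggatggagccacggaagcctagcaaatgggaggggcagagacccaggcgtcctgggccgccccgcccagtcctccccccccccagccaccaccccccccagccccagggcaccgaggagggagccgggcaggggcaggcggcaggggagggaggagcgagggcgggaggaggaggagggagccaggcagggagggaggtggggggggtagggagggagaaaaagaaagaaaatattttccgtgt
The hexamer begins 126 bases before the start in Nr0b1, 88 before it in Rxrg, 225 before it in Rarg, and after it, at position 33 counted from 0 at the start, in Rara.

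No receptor passed the test for a difference between ATZ-treated and control testes. At an adjusted p under 0.05 from limma, 0 of 44 receptors were called, and the background over all genes was 0.0% as well. The criterion of the study was a fold change of 1.5 and a p under 0.05, not stated to be adjusted or unadjusted. With the unadjusted p from limma it was met by 0 of 44 receptors, 0.203% of genes and 1.01% of the probe sets. An unadjusted p under 0.05 was reached by 1 receptor, Rxrg, and by 2.39% of genes. Log2 changes of the receptors ran from -0.20 for Rara to 0.28 for Pgr, with a median of -0.01. For 40 of the 44 the 95% interval of the change lay wholly within a fold of 1.5 in either direction. The exceptions were Pgr, Hnf4g, Nr2f2 and Nr2f1, whose intervals reached 0.68, 0.65, -0.68 and 0.725. The median distance from a change to the bound of its interval was 0.263. For a typical receptor with 3 arrays a group, a change closer to 0 than this had an interval that included 0. This distance is not adjusted for the number of tests. Rxrg, at 0.27, had an adjusted p of 0.998 from limma, and the smallest adjusted p of any probe set was 0.273.

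**Figure D1:**
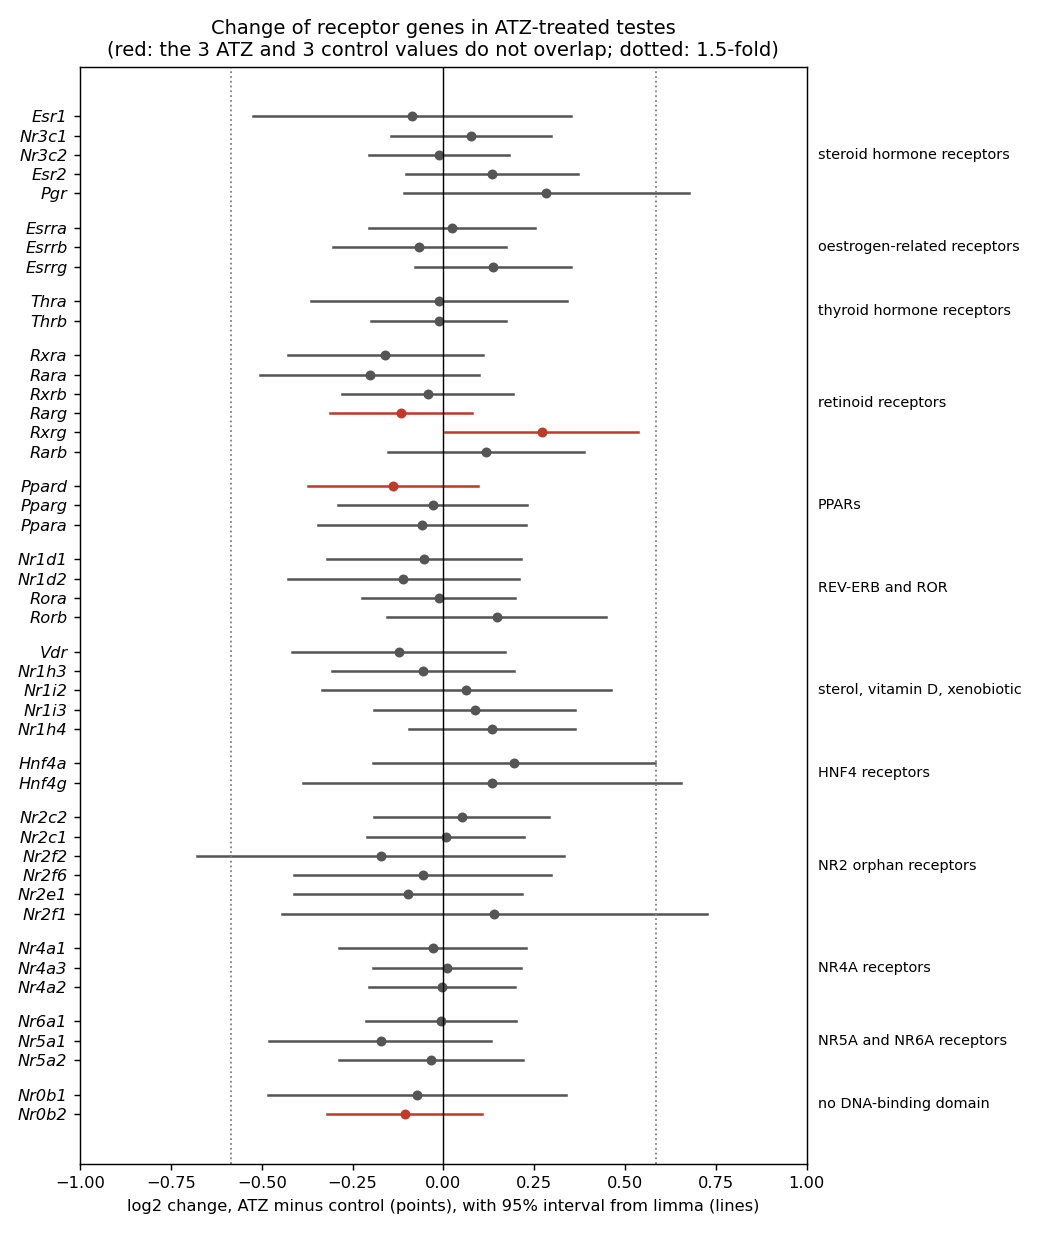
Log2 change (x axis, ATZ minus control) of each of the 44 receptors with its 95% interval from limma, grouped by role; dotted lines mark a fold of 1.5. The intervals of all receptors but Rxrg include 0, and the 4 receptors in red, Rxrg, Rarg, Ppard and Nr0b2, had no overlap between the 3 ATZ and the 3 control values.

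The receptors are described by their signal in the control arrays, from the highest downwards. Signals of different probe sets depend on the probes as well as on the transcript, so this is an order of array signals and not of molecules. The median over all probe sets was 6.625, and 32 receptors had a mean above it. No detection calls were used here, so a receptor below this value is not shown to be expressed. Of 43 pairs of neighbours in the order, 9 had control ranges that did not overlap, among them Nr0b1 and Nr2c2, Nr2c1 and Nr4a1, Nr4a1 and Nr1d1, and Rxra and Vdr. In the other pairs the order was within the spread between controls.

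**Figure D2:**
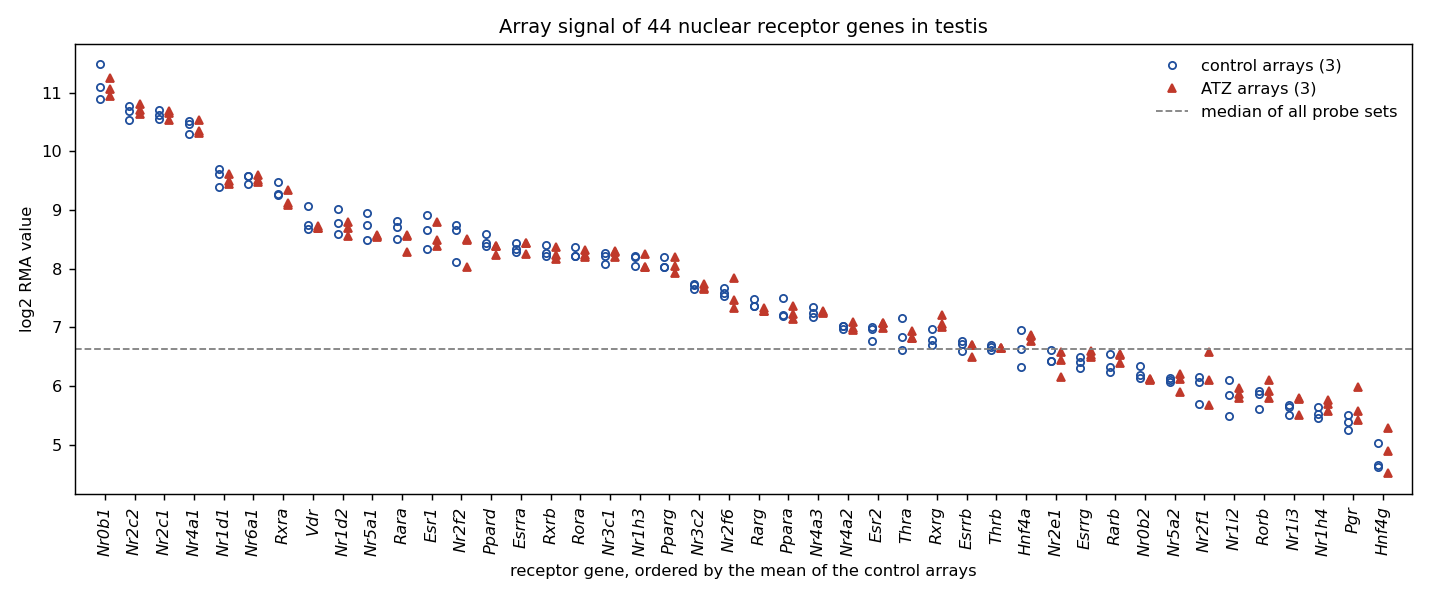
Log2 RMA value (y axis) of the 44 receptors on each of the 3 control arrays (open circles) and 3 ATZ arrays (triangles), ordered by the control mean, with the median of all probe sets as a dashed line. Nr0b1, Nr2c2, Nr2c1 and Nr4a1 lie above 10, and Nr1h4, Pgr and Hnf4g are the 3 lowest.

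Nr0b1 (DAX1), which lacks the usual DNA-binding domain and represses NR5A1, had the highest signal. It measured 10.89, 11.48 and 11.10 on the control arrays and 11.25, 11.06 and 10.94 on the ATZ arrays. Its control mean was 11.16 ± 0.299 (SD, n = 3), at the percentile 92.3 of all genes. The ATZ values lay within the range of the controls, with a log2 change of -0.07 (standard error 0.171). Nr0b2 (SHP), the other receptor of this kind and a feedback repressor of bile acid synthesis in liver, stood below the median of all probe sets at 6.34, 6.14 and 6.18 in controls and 6.10, 6.12 and 6.12 in ATZ-treated testes. Each ATZ value was below each control value, but the log2 change of -0.11 (standard error 0.089) had an adjusted p of 0.998 from limma and became -0.05 without control replicate 1.

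The orphan receptors Nr2c2 (TR4) and Nr2c1 (TR2), named for the testis they were isolated from, followed with nearly equal signals. Nr2c2 measured 10.54, 10.77 and 10.68 in controls and 10.81, 10.70 and 10.63 in ATZ-treated testes. Nr2c1 measured 10.70, 10.55 and 10.61 in controls and 10.54, 10.69 and 10.65 in ATZ-treated testes. Both sets of values overlapped, and the intervals of the change ran from -0.19 to 0.29 for Nr2c2 and from -0.21 to 0.22 for Nr2c1. The germ cell nuclear factor Nr6a1, a repressor expressed in round spermatids, measured 9.57, 9.45 and 9.57 in controls and 9.47, 9.51 and 9.59 in ATZ-treated testes. Its change of -0.01 (standard error 0.0857) had an interval from -0.21 to 0.20.

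Nr5a1 (SF-1), the activator of steroidogenic genes in Leydig cells, measured 8.75, 8.94 and 8.49 in controls and 8.55, 8.57 and 8.54 in ATZ-treated testes. The ATZ values lay close together, below 2 of the controls and above control replicate 3. The log2 change was -0.17 (standard error 0.127), with an interval from -0.48 to 0.13 and an adjusted p of 0.998 from limma. Without control replicate 3 it was -0.29, and without control replicate 2 it was -0.07. Nr5a2 (LRH-1), the close relative whose motif the study discussed, had a low signal, at the percentile 26.2 of all genes. It measured 6.13, 6.07 and 6.10 in controls and 5.89, 6.20 and 6.11 in ATZ-treated testes, with a change of -0.03 (standard error 0.105). The controls spanned only 0.06 and lay inside the ATZ range.

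Nr4a1 (NUR77), an immediate early receptor that luteinizing hormone induces in Leydig cells, had the next signal below Nr2c1. It measured 10.47, 10.29 and 10.52 in controls and 10.35, 10.31 and 10.53 in ATZ-treated testes, and the values of both groups covered nearly the same range (log2 change -0.03, standard error 0.107). Nr4a2 and Nr4a3, its relatives, had changes of -0.003 and 0.01, the smallest of the family together with those of Nr2c1 and Nr6a1. The immediate early genes beside which Nr4a1 is induced had 5 higher and 7 lower of 12 measured, with a median of -0.02, from -0.19 for Jun to 0.22 for Egr2, and 0 had an unadjusted p under 0.05 from limma.

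The REV-ERB receptors Nr1d1 and Nr1d2 bind haem and repress genes of the circadian clock. Nr1d1 measured 9.62, 9.70 and 9.39 in controls and 9.49, 9.61 and 9.45 in ATZ-treated testes. Nr1d2 measured 8.77, 9.01 and 8.59 in controls and 8.79, 8.69 and 8.56 in ATZ-treated testes. In both genes control replicate 2 was the highest of the 6 arrays, the groups overlapped, and the log2 changes were -0.05 (standard error 0.111) and -0.11 (standard error 0.132). Leaving out that array gave 0.01 for Nr1d1 and 0.00 for Nr1d2. Rora and Rorb, the activators that compete with them for the same sites, had changes of -0.01 and 0.15. Rorb had the lower signal, with 5.61, 5.86 and 5.91 in controls and 5.92, 5.80 and 6.10 in ATZ-treated testes.

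Retinoid receptors held the 1 receptor with an unadjusted p under 0.05 and the receptor with the lowest change. Rxrg, the retinoid X receptor best known from muscle and brain, measured 6.69, 6.79 and 6.97 in controls and 7.21, 7.05 and 7.0 in ATZ-treated testes. Each ATZ value was above each control value, although the lowest ATZ value exceeded the highest control by only 0.03. The log2 change was 0.27 (standard error 0.111), a fold of 1.21, with an interval from 0.004 to 0.54. The unadjusted p was 0.0474 and the adjusted p 0.998 from limma, and the exact permutation p was 0.1, the smallest that 3 arrays against 3 can give. The unadjusted p was above 0.05 in limma without any single array except control replicate 3, between 0.0516 without ATZ replicate 3 and 0.147 without control replicate 1, while the change stayed between 0.21 and 0.35.

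Rara, the retinoic acid receptor of Sertoli cells and spermatocytes, measured 8.71, 8.81 and 8.50 in controls and 8.57, 8.29 and 8.55 in ATZ-treated testes. ATZ replicate 2 was the lowest of the 6, and control replicate 3 lay below the other ATZ arrays. Its log2 change of -0.20 (standard error 0.126) had an adjusted p of 0.998 from limma and was -0.11 without ATZ replicate 2. Rarg, which acts in spermatogonia, measured 7.37, 7.49 and 7.37 in controls and 7.32, 7.28 and 7.28 in ATZ-treated testes. All 3 ATZ values were below all 3 controls, with a gap of 0.05 and a log2 change of -0.12 (standard error 0.0818). Rarb, with a mean signal of 6.425, had a change of 0.12 (standard error 0.112). It lay below the median of all probe sets, where 62.4% of all genes were higher. Rara and Rarg lay above it, where 39.7% were. The 3 retinoic acid receptors thus differed in the direction of the change, but each interval included 0. Rxra, a common partner of other receptors, measured 9.28, 9.47 and 9.26 in controls and 9.34, 9.08 and 9.11 in ATZ-treated testes, and Rxrb had a change of -0.04. ATZ replicate 1 of Rxra lay within the control range, and its log2 change was -0.16 (standard error 0.112).

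The oestrogen receptors lay on either side of 0. Esr1, which is expressed in Leydig and peritubular cells, measured 8.66, 8.92 and 8.33 in controls and 8.79, 8.48 and 8.38 in ATZ-treated testes. Its controls spanned 0.59, more than the whole ATZ range, and the change was -0.09 (standard error 0.182), or 0.06 with control replicate 2 left out. Esr2, at 6.97, 6.76 and 7.0 in controls and 6.98, 7.07 and 7.08 in ATZ-treated testes, had a change of 0.13 (standard error 0.0987), and only ATZ replicate 1 overlapped the controls. The progesterone receptor Pgr had the highest change of the family, 0.28 (standard error 0.163), at one of the lowest signals. It measured 5.39, 5.25 and 5.50 in controls and 5.42, 5.58 and 5.99 in ATZ-treated testes, and without ATZ replicate 3 the change was 0.12. Nr3c1, the glucocorticoid receptor, had 0.08 (standard error 0.0918), and Nr3c2, the mineralocorticoid receptor, -0.01 (standard error 0.0803). Of the oestrogen-related receptors, which act in energy metabolism, Esrra had 0.02 and Esrrb -0.07. Esrrg measured 6.40, 6.30 and 6.49 in controls and 6.49, 6.52 and 6.59 in ATZ-treated testes, where the lowest ATZ value equals the highest control, with a change of 0.14 (standard error 0.0894). The thyroid hormone receptors Thra and Thrb both had -0.01.

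Among receptors of lipids and vitamins, the 3 peroxisome proliferator-activated receptors, which respond to fatty acids, were all below 0. Ppard measured 8.43, 8.59 and 8.39 in controls and 8.38, 8.23 and 8.38 in ATZ-treated testes, so the groups were apart by 0.01, and the log2 change was -0.14 (standard error 0.0972). Ppara and Pparg had -0.06 and -0.03, and each reached 0.04 with a single array left out, so their signs did not hold. The vitamin D receptor Vdr measured 8.68, 9.07 and 8.74 in controls and 8.70, 8.73 and 8.69 in ATZ-treated testes. The ATZ values spanned 0.04, and control replicate 2 alone stood apart, and the change of -0.12 (standard error 0.122) was -0.003 without that array. The oxysterol receptor Nr1h3 had -0.06, the bile acid receptor Nr1h4 0.13, and the xenobiotic sensors Nr1i2 (PXR) and Nr1i3 (CAR), which induce drug-metabolizing enzymes in liver, 0.06 and 0.09. The signals of Nr1h4, Nr1i2 and Nr1i3 were at the percentile 21.6 of all genes or lower in controls.

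The remaining receptors are known mostly from other organs or from stromal cells. Nr2f2 (COUP-TFII), which marks interstitial cells and Leydig cell precursors, measured 8.74, 8.66 and 8.12 in controls and 8.50, 8.48 and 8.02 in ATZ-treated testes. In each group replicate 3 was lower than the others, and the SDs of 0.337 and 0.272 exceeded the log2 change of -0.17 (standard error 0.21). It was -0.02 with ATZ replicate 3 left out and -0.37 with control replicate 3 left out. Nr2f1 had its 2 ends within the ATZ group, with 6.10, 5.67 and 6.57 there and 6.07, 5.70 and 6.15 in controls, and a change of 0.14 (standard error 0.243) that was -0.09 with ATZ replicate 3 left out. Nr2f6 and the brain receptor Nr2e1 had -0.06 and -0.10. Hnf4a, a regulator of liver and gut genes, measured 6.63, 6.33 and 6.95 in controls and 6.77, 6.85 and 6.87 in ATZ-treated testes. The ATZ values lay within the wide range of the controls, and the change was 0.19 (standard error 0.161), with 0.04 when control replicate 2 was left out and 0.35 when control replicate 3 was. Hnf4g had the lowest signal of all, at 4.76 ± 0.226 (SD, n = 3) in controls, with a change of 0.13 (standard error 0.216).

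The direction of the change differed between receptors of higher and lower signal. Of the 32 receptors above the median of all probe sets, 8 were higher and 24 lower in ATZ-treated testes, with a median log2 change of -0.04. Of the 12 receptors at or below it, 9 were higher and 3 lower, with a median of 0.125. The same was seen over all genes, of which 39.7% were higher above that median and 62.4% at or below it. Over the whole family 17 of 44 were higher, against 47.8% of all genes. Of 13 receptors with a mean from 8 to 9, 11 were lower, as were 2032 of all 2947 genes in that interval. The median change of these genes was -0.04 and that of the receptors -0.09. For means from 5 to 6, all 5 receptors and 65.6% of all genes were higher. The medians there were 0.13 for the receptors and 0.06 for all genes. Receptors and all genes lay closer together from 7 to 8, with medians of -0.035 and -0.03, and from 10 to 12, with -0.012 and -0.007. In the interval from 10 to 12, 2 of the 4 receptors and 43.9% of all genes were higher. Groups that did not overlap were seen in 4 of 44 receptors, 1 higher and 3 lower, against 6.91% of genes, 3.83% higher and 3.08% lower. These counts are descriptions and no test was made over the list.

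**Figure D3:**
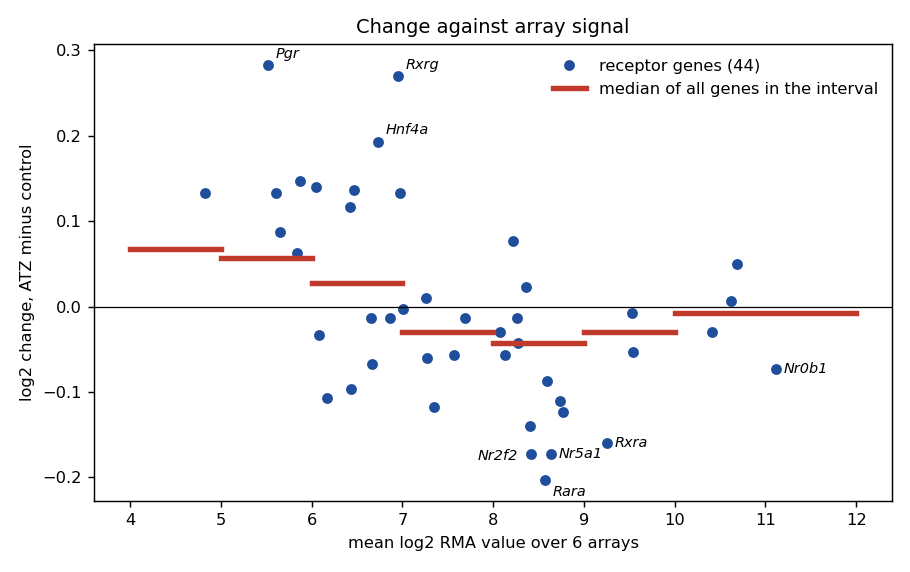
Log2 change (y axis, ATZ minus control) of the 44 receptors against their mean log2 RMA value over 6 arrays (x axis), with the median of all genes in each interval of signal as red bars. Pgr, Rxrg and Hnf4a stand highest at mean signals of at most 6.95, and Rara, Nr5a1, Nr2f2 and Rxra lowest at mean signals between 8.42 and 9.26.

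Single arrays carried much of this pattern among the 32 receptors above the median of all probe sets. In the 12 receptors at or below it, ATZ replicate 3 gave the highest value in 7 (58.3%), against 31.5% of all genes there. Control replicate 2 gave the highest of the 6 values in 16 of the 32 receptors above the median of all probe sets, or 50.0%, against 33.3% of all genes above it. These 16 include Nr0b1, Nr1d1, Nr1d2, Nr5a1, Esr1, Rara, Rxra, Vdr and Thra. Control replicate 2 was also the array with the highest mean of Leydig, Sertoli, macrophage, endothelial, peritubular and spermatogonial markers, while control replicate 3 and ATZ replicate 3 were the 2 lowest in each of these lists. Relative to the control mean, the 6 measured Leydig markers averaged 0.231 on control replicate 2, -0.258 on control replicate 3 and -0.098, -0.221 and -0.283 on the ATZ arrays, and the 8 endothelial markers 0.268, -0.29, 0.07, 0.07 and -0.243. Between the groups 6 of 6 Leydig, 8 of 9 Sertoli, 8 of 10 macrophage, 5 of 8 endothelial, 5 of 7 peritubular, 7 of 9 spermatogonial, 6 of 8 spermatocyte, 2 of 6 round spermatid and 3 of 5 elongating spermatid markers had a lower mean in ATZ-treated testes. Over all 14252 genes above the median of all probe sets, 8376 had a lower mean there. The markers of spermatocytes and elongating spermatids lay between -0.064 and 0.038 on every array, and those of round spermatids between -0.036 and 0.063. Fewer cells of a type and less RNA per cell cannot be told apart in whole testis, and the part of cell composition in the receptor values was not tested. As control replicate 2 was the highest array in many of these same receptors, leaving it out was bound to raise many of their changes. Without control replicate 2, 17 of the 32 receptors were higher and 15 lower in ATZ-treated testes, with a median of 0.002. Of all genes above the median of all probe sets, 47.3% were then higher. Leaving out that array also moved the log2 change of Nr0b1 to 0.09, Rxra to -0.09, Ppard to -0.08, Rarg to -0.08, Esr2 to 0.06 and Esrrg to 0.09. That of Rorb was 0.06 with control replicate 1 left out. Without each of the other arrays in turn, 8 to 12 of the 32 were higher.

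**Figure D4:**
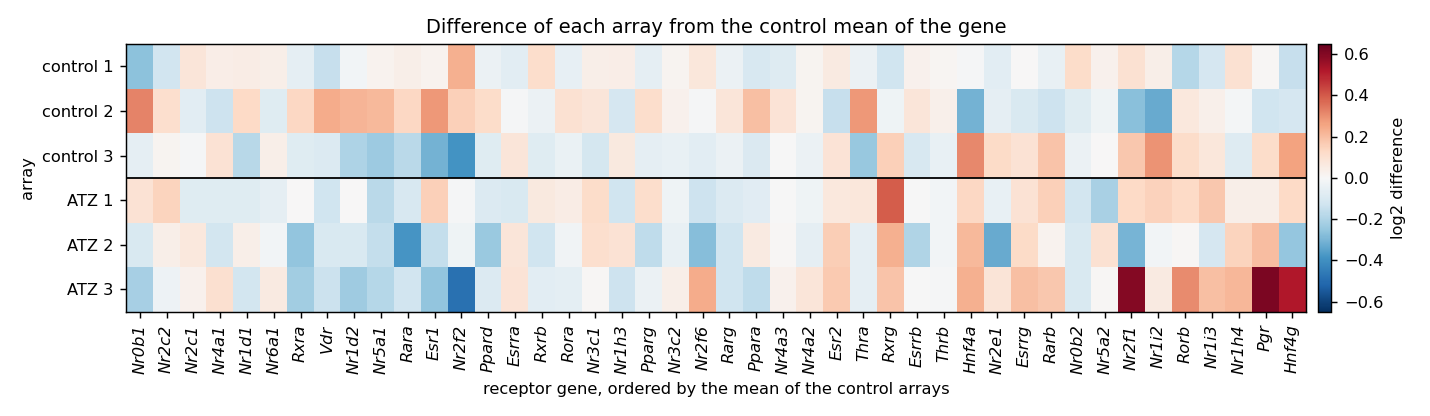
Difference of each array (rows) from the control mean of each of the 44 receptors (columns, ordered by control mean), in log2 units. Control replicate 2 is red over many receptors of high signal at the left, control replicate 3 is blue at Esr1, Nr2f2 and Thra, and ATZ replicate 3 is red at Nr2f1, Pgr and Hnf4g at the right.

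**Figure D5:**
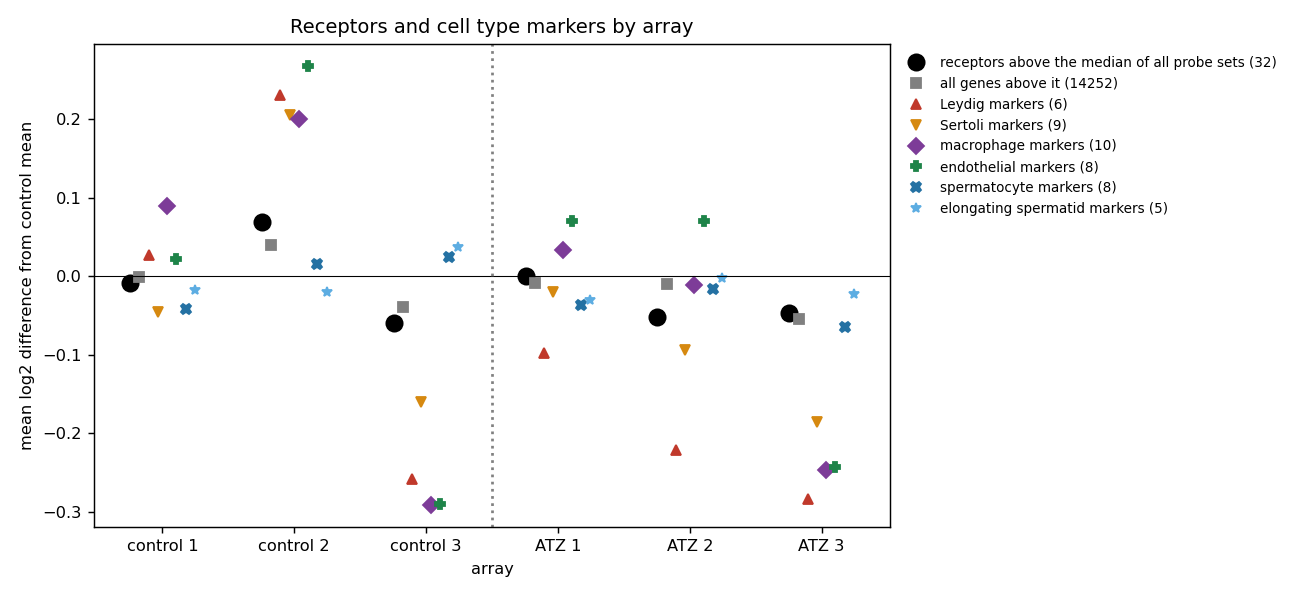
Mean log2 difference from the control mean (y axis) on each array for the 32 receptors above the median of all probe sets, for all 14252 genes above it, and for cell type markers, with the number of genes in brackets. The receptors range from -0.06 on control replicate 3 to 0.069 on control replicate 2, where the Leydig, Sertoli, macrophage and endothelial markers are highest too.

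Esr1 and Nr2f2, receptors of interstitial and peritubular cells, were lowest on the third array of each group, but so were Nr1d1, Nr1d2, Nr3c1 and Nr5a1. Endothelial, macrophage, peritubular, Leydig, Sertoli and spermatogonial markers all had their lowest mean within each group on that array. The mean difference of the 14252 genes of higher signal from the control mean was lowest there too, at -0.039 in controls and -0.054 in ATZ-treated testes. A link of these receptors with any 1 cell type was not tested. In the controls Nr5a1 had 8.94 on replicate 2, 8.75 on replicate 1 and 8.49 on replicate 3. Leydig, Sertoli, macrophage, endothelial, peritubular and spermatogonial markers shared this order of the controls, and so did the mean of the 14252 genes. Over the ATZ arrays Nr5a1 spanned only 0.03. Among the receptors of highest signal, Nr4a1, Nr2c1 and Nr6a1 were lowest among the controls on replicate 2, while Nr0b1 and Nr2c2 were highest there. Checked against the tissue label, the markers of elongating spermatids averaged 13.05 to 13.12 on every array and those of epididymal epithelium 5.96 to 6.17.

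The genes that the receptors are known to control, and their coregulators, were read from lists in the same fit. Of 20 measured coregulators, 4 were higher and 16 lower in ATZ-treated testes, with a median log2 change of -0.055 and 1 unadjusted p under 0.05 from limma. This was Ncoa2 (TIF2), a coactivator of steroid receptors that the study examined on its own, at 11.08, 11.18 and 10.98 in controls and 10.81, 10.91 and 10.62 in ATZ-treated testes. Its log2 change was -0.30 (standard error 0.11), with each ATZ value below each control. The highest coregulator was Ppargc1b, a coactivator of oestrogen-related receptors, at 0.10. Of 9 measured NR5A targets, 8 were lower and 1 higher, with a median of -0.11. Star, the cholesterol carrier of steroid synthesis, which the study selected on these arrays, had -0.64 (standard error 0.212) and was the only one with an unadjusted p under 0.05, and Amh had the highest value, 0.07. Star, Cyp11a1, Cyp17a1, Hsd3b1 and Hsd3b6 of this list are also 5 of the 6 measured Leydig markers above, so the counts of these lists are not independent. All 9 NR5A targets and 19 of the 20 coregulators lay above the median of all probe sets, where 8376 of 14252 genes were lower. The mean of the NR5A targets was highest on control replicate 2, at 10.79, and lowest on control replicate 3, at 10.4.
Of 12 measured genes of the circadian clock, 4 were higher and 8 lower, with a median of -0.09. Bhlhe40, a repressor of the clock, had -0.23 (standard error 0.0928, unadjusted p = 0.0474 and adjusted p of 0.998 from limma), and Nfil3 had the highest change, 0.07. Of 5 thyroid hormone receptor targets 3 were higher, led by Dio1, the deiodinase that activates thyroid hormone. Dio1 measured 6.07, 6.14 and 6.15 in controls and 6.54, 6.57 and 6.42 in ATZ-treated testes, a log2 change of 0.39 (standard error 0.0853), and the groups were apart by 0.27 while Thra and Thrb both stood at -0.01. Its signal was below the median of all probe sets and its adjusted p from limma was 0.998.
None of the measured members of the other lists had an unadjusted p under 0.05 from limma. Of 8 retinoic acid targets 6 were lower, from -0.24 for Stra8, which retinoic acid induces before meiosis, to 0.19 for Dhrs3. Of 9 PPAR targets 6 were lower, from -0.63 (standard error 0.543) for the fatty acid carrier Fabp4 to 0.10 for Lpl. Of 8 LXR targets 4 were lower, from -0.31 for Scd1 to 0.19 for Abcg5, and of 10 glucocorticoid receptor targets 8 were lower, from -0.15 for Ddit4 to 0.03 for Mt2. Of 7 targets of the xenobiotic sensors 4 were lower, from -0.09 for Alas1 to 0.32 for Cyp3a11. The share of all genes with an unadjusted p under 0.05 was 2.39%, and no gene of any list passed adjustment over all probe sets. Of all 22180 genes 11277 were lower in ATZ-treated testes, and of the 14252 above the median of all probe sets 8376. All 10 glucocorticoid receptor targets lay above that median.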

How the data were processed

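RNA of whole testes was hybridized by the authors to Affymetrix mouse gene 2.0 st arrays, with 3 arrays in each group. The deposited log2 values were made by the authors with RMA in the Affymetrix Expression Console (versions not given in the sources used here) and are rounded to 2 decimals. RMA had already corrected the background, normalized between arrays and summarized probes, which limits differences in total signal between arrays. The array medians were 6.60 to 6.69. The annotation gives 1 symbol to 23521 of 41345 probe sets.

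The fit used lmFit and eBayes of limma 3.58.1 (R 4.3.3), two-sided and without a filter, with Benjamini-Hochberg adjustment across the 41345 probe sets. The criterion of the study, which used AMEN with a test not named there, was a fold of 1.5 and p under 0.05. An exact permutation test (scipy 1.17.1) was run for single receptors. The fit was tested on simulated data. Values by array are given for the 12 receptors of highest control mean, the 6 of largest and 6 of smallest log2 change, those with an unadjusted p under 0.05, and Nr5a1, Nr5a2, Esr1, Esr2, Nr4a1 and Nr1d1. Listed genes are named where their unadjusted p is under 0.05 or as the ends of a list. Rarg and Nr0b2 were added after their values were seen. Receptors, lists, markers and the rule were chosen with earlier results of these data known. Cyp19a1, Insl3 and Lhcgr were among 15 listed genes without a probe set of their own. Sequences are from RefSeq, GRCm38.p6. Alternatives were a replicate block, other variance models, array weights, normalization, centring, filters, probe set choice, linear folds, Student's test of each probe set and each array left out.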

Additional observations from a re-analysis of the deposited data

How the results depend on the processing

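In each of the 11 alternatives with all arrays, and without each array in turn, 0 receptors had an adjusted p under 0.05 from limma or met the fold of 1.5. The count of receptors higher in ATZ-treated testes was 17, between 14 and 21 in the alternatives that kept 44 receptors, and 8 of 32 where dim probe sets (mean at or below the median) were left out. It ran from 15 to 25 without single arrays, 25 without control replicate 2, and the median from -0.034 to 0.005. Whether the replicate numbers pair the samples is not given. Deviations of equal numbers correlated at 0.017, 0.106 and 0.26, and those of unlike numbers between -0.189 and 0.089. With 3 arrays a group these values cannot decide whether samples of equal number shared a batch or were paired. With a replicate block 17 receptors were higher, 0 had an unadjusted p under 0.05, and 499 probe sets met the criterion, against 416 without the block. That count was 50 without dim probe sets, 51 of 23521 probe sets with 1 symbol and 48 of 22180 genes with probe sets averaged by gene. These settings hold fewer features than the 41345 probe sets of the main fit, in which 45 of 22180 genes met the criterion. The count was 193 with Student's test of each probe set and 483 to 699 without single arrays. It was 656 when ATZ replicate 1 was dropped, 699 when ATZ replicate 2 was, and 663 when control replicate 3 was. At an adjusted p under 0.05 there were 0 probe sets, 1652 having an unadjusted p under 0.05. There were 2 with a variance trend and robust settings, 2 without dim probe sets, 1 with 1 symbol and 1 with probe sets averaged. The sign of the change was the same for 20 receptors in every setting that held them (without dim probe sets, Pgr and other receptors of low signal have no value), 10 higher and 10 lower, among them Rxrg, Rara, Rarg, Ppard, Nr5a1 and Pgr, and control replicate 2 left out turned 12 of 44. Without control replicate 3, Rxrg, Hnf4a and Nr5a1 had an unadjusted p under 0.05 from limma. The unadjusted p of Rxrg exceeded 0.05 with the replicate block (0.09), quantile normalization (0.0634), centring (0.0793) and Student's test of each probe set (0.0596). The cause of these shifts was not tested.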

Other observations

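Further probe sets of Ppard and Nr3c2 did not stand for their genes in the values given by receptor, although that of Nr3c2 alone entered the alternatives of probe set choice. A probe set that Ppard shares with 1810013A23Rik had a mean of 6.747 in ATZ-treated and 6.49 in control samples, which differ by 0.26 on the log2 scale (standard error 0.118), while the probe set of Ppard alone had -0.14 (standard error 0.0972). For Nr3c2 the probe set of highest mean had -0.01, a dimmer probe set of its own 0.25 (standard error 0.124), from 4.427 to 4.677, and a probe set shared with Gm10649 0.19 (standard error 0.133). All 3 probe sets with the positive values had means below that of the gene's main probe set.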
